A study of Mus musculus with 6 samples.

Results

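The genes described here are 10 carriers that move amino acids across the plasma membrane, or that form part of such a carrier: Slc7a5, Slc3a2, Slc7a1, Slc7a3, Slc1a4, Slc1a5, Slc38a1, Slc38a2, Slc38a3 and Slc6a9. They were chosen by gene symbol, all 10 were found among 55802 listed genes, and all 10 passed the filter on low values. Sequencing was done on RNA of primary neural stem cells from the subventricular zone (SVZ), the neurogenic wall of the lateral ventricle of adult C57BL/6 mice, which were kept in a Neurobasal-type medium with B27. In the SETD4 OE group (n = 3) the cells had been infected for 24 h with ADV-SETD4-GFP, an adenovirus carrying SETD4, a protein with the SET domain found in lysine methyltransferases, together with green fluorescent protein. In the control group (n = 3) they had been infected with ADV-GFP, which carries the fluorescent protein alone. Both groups therefore received adenovirus, and the genotype label of the control is WT. The labels do not say whether libraries of a group came from separate cultures or animals, so p-values measure the spread between these libraries, which may be technical.

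Amino acids enter cells through carriers that either exchange one amino acid for another or use the sodium gradient to accumulate them. Exchangers such as LAT1, the product of Slc7a5, bring in leucine and other large neutral amino acids against an outgoing amino acid such as glutamine, so they depend on carriers that keep the internal pool filled. Leucine and arginine act on the growth kinase complex mTORC1, and lack of amino acids acts through the kinase GCN2 (Eif2ak4) and the transcription factor ATF4, whose known targets include several of these carriers. In brain, the glutamine carrier SNAT3 (Slc38a3) and the glycine carrier GlyT1 (Slc6a9) are best known from astrocytes.

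The values are FPKM, as inferred from the values and gene lengths, meaning reads scaled by gene length and by a library size. Levels of different genes are thus compared per length, and their order depends on the gene lengths in the deposited data. The recovered reads per library ran from 14924273 to 16045138 in SETD4 OE and from 16007182 to 18078717 in control. They differed from the library size implied by the values by -5.04%, -3.97% and -3.69% in SETD4 OE libraries 1, 2 and 3. In control libraries 1, 2 and 3 they differed by 0.63%, 2.75% and 0.64%. Against scaling by recovered reads, this sets SETD4 OE values lower relative to control, which weighs most on small fold changes. Setd4 was covered by 25096, 28959 and 29822 reads in SETD4 OE libraries 1, 2 and 3, against 82, 92 and 131 reads in control libraries 1, 2 and 3. A mean of 1 FPKM or more was reached by 12994 genes, and 60.0% of these changed at a Benjamini-Hochberg adjusted p under 0.05 in limma (26.0% higher and 33.9% lower in SETD4 OE). Their median log2 fold change was -0.06. Control library 1 stood apart by its share of mitochondrially encoded reads, which was 3.52% to 3.73% in the SETD4 OE libraries, against 3.78% in control library 1 and 2.45% in each of the other control libraries. Without that library the number of transporters that changed was the same, 7.

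Of the 10 transporters, 4 rose in SETD4 OE (Slc38a1, Slc38a3, Slc6a9 and, by a small amount, Slc3a2), 3 fell (Slc1a5, Slc7a1 and Slc1a4), and 3 did not pass the test (Slc7a5, Slc7a3 and Slc38a2). That is 7 of 10 called, beside 60.0% of all tested genes, a share near the background. The groups did not overlap for 8 of the 10, beside 66.0% of all tested genes (29.1% with SETD4 OE higher and 36.9% with SETD4 OE lower). The median log2 fold change over the 10 was 0.00, beside -0.06 for all tested genes, and the estimates ran from -1.09 to 1.40. Summed over the 10 genes, the level was 251 ± 2.69 FPKM in SETD4 OE and 222 ± 3.27 FPKM in control (mean ± SD, n = 3 each). Each transporter was covered by between 82 and 10468 reads in each library.

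**Figure D1:**
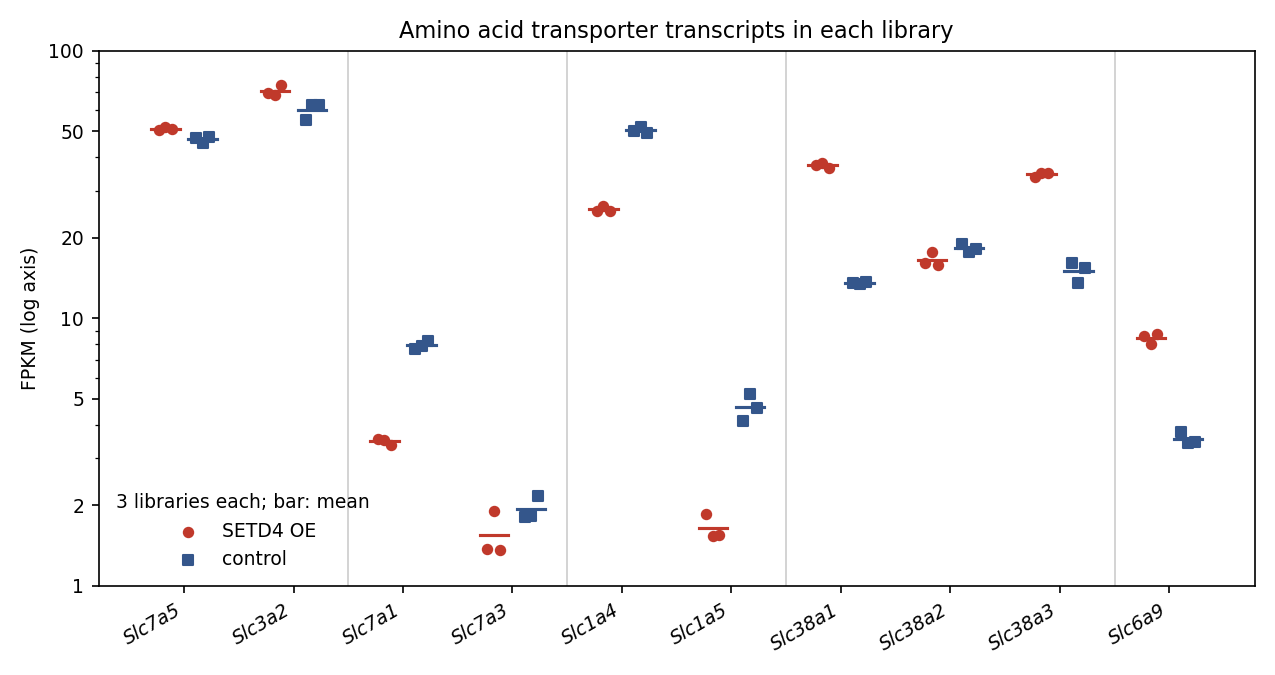
FPKM (log axis) of the 10 amino acid transporters in each library, with SETD4 OE libraries as circles, control libraries as squares and group means as bars; vertical lines separate the carrier classes. Slc38a1, Slc38a3 and Slc6a9 lie higher in all 3 SETD4 OE libraries, Slc7a1, Slc1a4 and Slc1a5 lie lower, and Slc7a3 and Slc38a2 overlap between groups.

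The 3 sodium-coupled neutral amino acid carriers of the SLC38 family did not move together. Slc38a1 (ENSMUSG00000023169, mm39 chr15:96469299-96540794, minus strand) encodes SNAT1, which takes up glutamine, alanine and other small neutral amino acids with sodium. It was at 37.5, 38.1 and 36.5 FPKM in SETD4 OE libraries 1, 2 and 3, against 13.5, 13.5 and 13.7 FPKM in control libraries 1, 2 and 3. All SETD4 OE values lay above all control values, and the control spread was the tightest of the 10 genes, with an SD of 0.829% of the mean. The ratio of group means was 2.75 and the log2 fold change 1.40 (SE 0.05, 95% interval 1.28 to 1.51, adjusted p = 2.379e-06, limma). Counted from the largest rise, this was rank 207 of 12994 tested genes. All fold changes of FPKM were taken after adding a pseudocount of 1, so that of a low gene comes out smaller than its ratio of means.

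Slc38a3 (ENSMUSG00000010064, chr9:107527833-107546729, minus strand), the gene of the system N glutamine carrier SNAT3, was at 33.8, 35.0 and 34.8 FPKM in the SETD4 OE libraries, against 16.1, 13.6 and 15.4 FPKM in the control libraries. The groups did not overlap, and the log2 fold change was 1.15 (SE 0.07, 95% interval 0.98 to 1.32, adjusted p = 1.628e-05, limma). Slc38a2 (ENSMUSG00000022462, chr15:96585273-96597611, minus strand) encodes SNAT2, the system A carrier known to be induced when amino acids are scarce. It was at 16.1, 17.7 and 15.8 FPKM in SETD4 OE, against 19.0, 17.7 and 18.2 FPKM in control. SETD4 OE library 2 lay within the control range. The log2 fold change was -0.14 (SE 0.06, 95% interval -0.29 to 0.01, adjusted p = 0.0916, limma). Without SETD4 OE library 2 the gene passed at -0.19 (adjusted p = 0.0386), and with upper-quartile scaling or quantile normalization the estimate was 0.00 and 0.01.

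Slc38a1 and Slc38a2 lie on the same strand of chromosome 15 with 44478 bases and 1 listed gene, an snRNA, between them. The ratio of Slc38a2 to Slc38a1 was 0.429, 0.466 and 0.433 in the SETD4 OE libraries, against 1.40, 1.31 and 1.33 in the control libraries. Slc38a1 was thus the more abundant of the pair per length in every SETD4 OE library and the less abundant in every control library. By reads, which are not divided by length, Slc38a1 was the more abundant in control as well. It had 3731, 4090 and 3754 reads in control libraries 1, 2 and 3, against 2685, 2756 and 2557 for Slc38a2. The order within control thus rests on the deposited gene lengths, 17236 bases for Slc38a1 and 8838 for Slc38a2. On the log2(FPKM + 1) scale the ratio differed by -1.54 (exact two-sided permutation test over libraries, p = 0.1, the smallest that 3 against 3 allows; 0.3 after adjustment over 3 ratios). Slc38a4, a related gene of the same chromosome, was below the filter.

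Both exchangers of the alanine-serine-cysteine class fell. Slc1a4 (ENSMUSG00000020142, chr11:20252180-20282713, minus strand) encodes ASCT1, which exchanges alanine, serine, cysteine and threonine. It was at 25.2, 26.3 and 25.2 FPKM in SETD4 OE, against 50.3, 51.9 and 49.1 FPKM in control, with no overlap. Its log2 fold change was -0.95 (SE 0.05, 95% interval -1.07 to -0.83, adjusted p = 9.885e-06, limma). In FPKM this was the largest difference of any of the 10 genes, -24.8 FPKM between the group means.

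Slc1a5 (ENSMUSG00000001918, chr7:16515265-16532199, plus strand) encodes ASCT2, the exchanger best known for glutamine uptake in proliferating cells. It was at 1.85, 1.54 and 1.55 FPKM in SETD4 OE, against 4.13, 5.23 and 4.63 FPKM in control, so the groups did not overlap. The log2 fold change was -1.09 (SE 0.10, 95% interval -1.32 to -0.87, adjusted p = 7.915e-05, limma), the largest fall of the 10 on this scale. These values rest on 122, 100 and 108 reads in SETD4 OE and 276, 384 and 307 reads in control. With limma-voom on the reads the log2 fold change of Slc1a5 was -1.42 (adjusted p = 4.416e-06). The ratio of Slc1a5 to Slc1a4 was 0.0646 ± 0.00781 in SETD4 OE and 0.0924 ± 0.00948 in control (mean ± SD, n = 3 each). The ratio was lower in each SETD4 OE library than in each control library. On the log2(FPKM + 1) scale, which shrinks the low Slc1a5, it differed by -0.14 (exact two-sided permutation test, p = 0.2, 0.3 after adjustment over 3 ratios). With a pseudocount of 0.1 FPKM the difference was -0.47 (exact p = 0.1, the smallest that 3 against 3 allows).

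The cationic carriers differed in their result. Slc7a1 (ENSMUSG00000041313, chr5:148264220-148336714, minus strand) encodes CAT1, the widely expressed carrier of arginine and lysine. It was at 3.55, 3.51 and 3.36 FPKM in SETD4 OE, against 7.70, 7.86 and 8.20 FPKM in control, and the groups did not overlap. The log2 fold change was -0.995 (SE 0.06, 95% interval -1.13 to -0.86, adjusted p = 1.174e-05, limma). Slc7a3 (ENSMUSG00000031297, chrX:100122816-100129626, minus strand), which encodes the related carrier CAT3, was the lowest of the 10 genes. It was at 1.37, 1.90 and 1.36 FPKM in SETD4 OE, against 1.81, 1.82 and 2.16 FPKM in control. SETD4 OE library 2 lay within the control range, and the reads per library numbered 82, 112 and 86 in SETD4 OE and 110, 121 and 130 in control. The log2 fold change of -0.21 did not pass (SE 0.11, 95% interval -0.47 to 0.06, adjusted p = 0.153, limma), although it did without SETD4 OE library 2 (-0.31, adjusted p = 0.0455).

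LAT1 works as a pair of proteins: the light chain Slc7a5 carries the amino acid, and the heavy chain Slc3a2 (4F2hc, also called CD98) brings it to the membrane. In FPKM they were the most abundant of the 10 in SETD4 OE, and in control Slc1a4 stood between them. Slc3a2 (ENSMUSG00000010095, chr19:8684246-8700733, minus strand) was at 69.4, 68.4 and 74.2 FPKM in SETD4 OE, against 55.1, 62.6 and 62.6 FPKM in control. The groups did not overlap, and the gene rose by a log2 fold change of 0.23 (SE 0.07, 95% interval 0.07 to 0.40, adjusted p = 0.0242, limma). That call was lost without SETD4 OE library 1 (0.24, adjusted p = 0.0565) or SETD4 OE library 3 (0.20, adjusted p = 0.0816).

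Slc7a5 (ENSMUSG00000040010, chr8:122607889-122634433, minus strand) was at 50.4, 52.0 and 51.0 FPKM in SETD4 OE, against 47.1, 45.3 and 47.5 FPKM in control. The groups did not overlap, but the log2 fold change of 0.13 did not pass (SE 0.05, 95% interval 0.01 to 0.25, adjusted p = 0.0552, limma). It passed under each of 4 other scalings and with limma-voom on the reads, where the log2 fold change ran from 0.20 to 0.32. The ratio of Slc7a5 to Slc3a2 was 0.724 ± 0.0366 in SETD4 OE and 0.779 ± 0.0678 in control (mean ± SD, n = 3 each), with overlapping groups (exact two-sided permutation test, p = 0.5, 0.5 after adjustment over 3 ratios).

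Slc3a2 serves several other light chains, which were put together after their values were seen. Slc7a11, the light chain of the cystine-glutamate exchanger, was at 10.2 ± 0.646 FPKM in SETD4 OE and 3.33 ± 0.280 FPKM in control and rose by 1.37 on the log2 scale (adjusted p = 1.062e-05, limma). Slc7a10, the light chain of a small neutral amino acid exchanger, was at 2.81 ± 0.407 FPKM in SETD4 OE and 0.855 ± 0.0892 FPKM in control and rose by 1.03 (adjusted p = 1.577e-04, limma); it passed the filter on low values only through the SETD4 OE libraries, so a difference was built into its test. Slc7a6, which exchanges arginine for glutamine, was at 5.86 ± 0.170 FPKM in SETD4 OE and 7.17 ± 0.103 FPKM in control and fell by 0.25 (adjusted p = 4.853e-03, limma). The fall of Slc7a6 did not pass with values scaled to equal sums or by upper quartile. Slc7a8 was at 2.03 ± 0.151 FPKM in SETD4 OE and 2.12 ± 0.156 FPKM in control and did not pass. Slc7a7 was at 1.03 and 0.513 FPKM on average, in SETD4 OE and control, and was below the filter. The 5 light chains other than Slc7a5 summed to 21.9 ± 1.05 FPKM in SETD4 OE and 14.0 ± 0.410 FPKM in control. All 6 together gave 1.03 ± 0.0621 FPKM per FPKM of Slc3a2 in SETD4 OE and 1.01 ± 0.0908 in control, with overlapping groups.

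Slc6a9 (ENSMUSG00000028542, chr4:117691703-117732395, plus strand) encodes GlyT1, which takes up glycine with sodium and chloride. It was at 8.61, 7.99 and 8.76 FPKM in SETD4 OE, against 3.75, 3.41 and 3.45 FPKM in control, and every SETD4 OE value lay above every control value. The log2 fold change was 1.06 (SE 0.06, 95% interval 0.91 to 1.21, adjusted p = 1.472e-05, limma). Of the 10 genes it was the only 1 that overlapped other genes in the deposited coordinates. With no strand setting given, reads of Slc6a9 and of B4galt2, which lies on the opposite strand and shares 5939 bases of the locus, cannot be told apart where they overlap. B4galt2 was at 7.61 FPKM in SETD4 OE and 13.1 FPKM in control on average, the opposite direction to Slc6a9. Ccdc24 and Gm17114, also on the opposite strand, were at 0.129 and 0 FPKM in SETD4 OE and at 0.0662 and 0 FPKM in control.

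**Figure D2:**
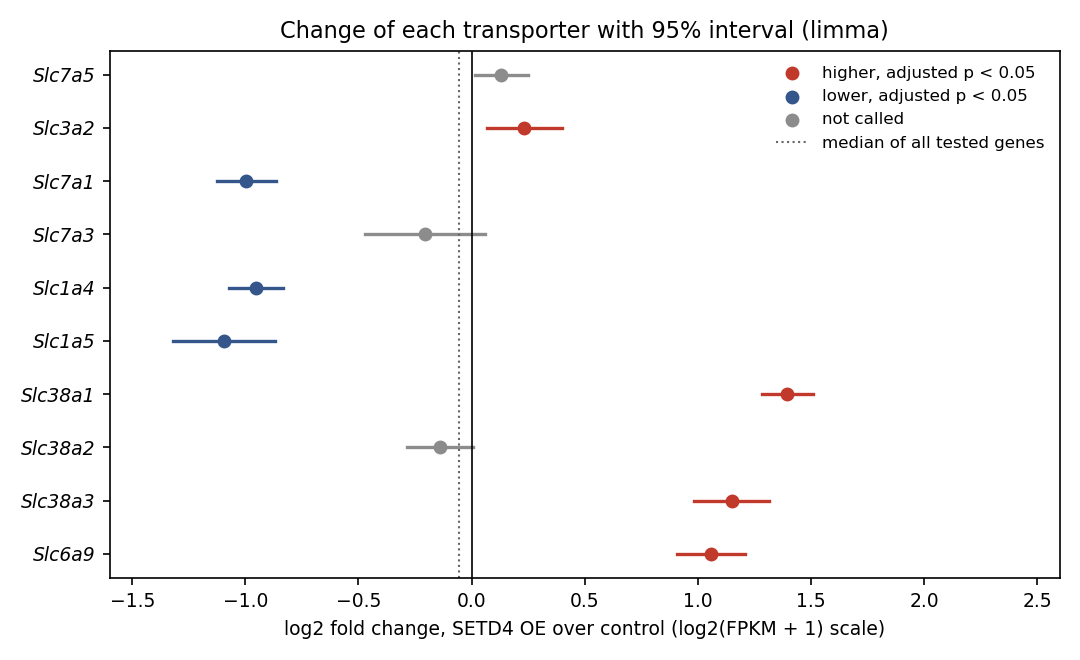
Log2 fold change of each transporter, SETD4 OE over control, with its 95% interval from limma; the dotted line is the median of all tested genes. Slc38a1, Slc38a3 and Slc6a9 lie beyond 0.91 with their whole intervals, Slc7a1, Slc1a4 and Slc1a5 lie below -0.83, and Slc7a5, Slc3a2, Slc7a3 and Slc38a2 lie close to 0.

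The order of the levels in FPKM, which depends on the deposited gene lengths, differed between the groups. In SETD4 OE the order from the highest was Slc3a2, Slc7a5, Slc38a1, Slc38a3, Slc1a4, Slc38a2, Slc6a9, Slc7a1, Slc1a5 and Slc7a3, and only Slc1a5 and Slc7a3 overlapped with their neighbour in that order. In control the order was Slc3a2, Slc1a4, Slc7a5, Slc38a2, Slc38a3, Slc38a1, Slc7a1, Slc1a5, Slc6a9 and Slc7a3, and only Slc38a3 and Slc38a1 overlapped. The 3 SLC38 genes made up 35.2% of the summed FPKM of the 10 in SETD4 OE and 21.1% in control. The 2 exchangers Slc1a4 and Slc1a5 made up 10.8% in SETD4 OE and 24.8% in control. Slc7a5 and Slc3a2 together made up 48.6% in SETD4 OE and 48.1% in control.

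Marker genes of neural stem cells and of other cell types were read beside these values. In bulk RNA a change in the number of cells of a type and a change in RNA per cell cannot be told apart. The counts of rises and falls below stand beside 60.0% of all tested genes called, 26.0% higher and 33.9% lower. Of 9 astrocyte markers 8 were tested, 7 rose and none fell, and the list summed to between 827 and 834 FPKM in the SETD4 OE libraries and between 373 and 403 FPKM in the control libraries. Slc1a2, among the 7 that rose, is also counted with the wider amino acid carriers below. Whether these rises belong to astrocytes or to the neural stem cells was not tested. Of 7 ependymal markers 6 were tested and all 6 rose, with sums between 56.0 and 73.2 FPKM in SETD4 OE and between 22.4 and 27.0 FPKM in control. Slc38a1, Slc38a3 and Slc6a9 rose as well, and so did most tested genes of the pericyte and fibroblast, neural stem cell and oligodendrocyte lists given next. Of 9 pericyte and fibroblast genes 4 were tested, 3 rose and 1 fell, with sums between 22.9 and 26.7 FPKM in SETD4 OE and between 32.7 and 37.2 FPKM in control. The lower sum in SETD4 OE rests on Acta2, the gene that fell, at 11.6 FPKM in SETD4 OE and 30.9 FPKM in control. Of 12 neuronal genes 7 were tested, 2 rose and 4 fell, with sums between 44.2 and 50.9 FPKM in SETD4 OE and between 51.4 and 54.8 FPKM in control. All 10 neural stem cell markers passed the filter, 7 rose and 3 fell, and they summed to between 3302 and 3471 FPKM in SETD4 OE and between 2710 and 2923 FPKM in control. That higher sum in SETD4 OE rests on Gfap, which rose and was at 1388 FPKM in SETD4 OE and 321 FPKM in control. Of the 3 that fell, Nes was at 42.7 FPKM in SETD4 OE and 117 FPKM in control. Vim and Fabp7 were at 682 and 817 FPKM in SETD4 OE, against 862 and 1124 FPKM in control. Of 10 genes of the oligodendrocyte lineage 9 were tested, 7 rose and 2 fell, and they summed to between 729 and 786 FPKM in SETD4 OE and between 1158 and 1294 FPKM in control. That lower sum rests on the 2 that fell, Olig1 (570 FPKM in SETD4 OE, 888 FPKM in control) and Olig2 (128 FPKM in SETD4 OE, 339 FPKM in control). Slc7a5 is also known from brain endothelium. The 11 endothelial genes summed to between 1.76 and 1.93 FPKM in the SETD4 OE libraries and between 4.16 and 4.60 FPKM in the control libraries, with Cldn5 and Tie1 at 0 in all libraries. Flt1, the only endothelial gene tested, fell and was at 0.618 FPKM in SETD4 OE and 3.43 FPKM in control, and the others summed to 1.25 ± 0.0490 FPKM in SETD4 OE and 0.936 ± 0.0834 FPKM in control. Of 11 microglia and macrophage markers 1 was tested, and the list summed to between 5.69 and 6.98 FPKM in SETD4 OE and between 6.90 and 10.3 FPKM in control. The lower sum in SETD4 OE rests on the tested gene, Cd68, which fell and was at 3.75 FPKM in SETD4 OE and 6.94 FPKM in control. Tmem212, Pifo, Mag, Rgs5, Col1a1 and Gad1 averaged below 1 FPKM in control and passed the filter only through SETD4 OE. Nefl, Nefm, Gad2 and Flt1 averaged below 1 FPKM in SETD4 OE and passed only through control. A difference was thus built into the tests of these genes. The part of any of these cell types in the transporter results was not tested.

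The wider set of amino acid carriers of the cell surface held 44 further genes, of which 16 passed the filter, and among these 8 rose and 3 fell. That is 68.8% called, beside 60.0% of all tested genes (26.0% higher and 33.9% lower), a share near the background. Their median was 0.20 on the log2 scale. Genes that passed only because of high values in a single group had to differ, so this count describes the 16 and not the 44. The glutamate carrier gene of astrocytes, Slc1a2, was at 89.2 ± 4.07 FPKM in SETD4 OE and 25.5 ± 2.63 FPKM in control and rose by 1.77 on the log2 scale (adjusted p = 6.195e-06, limma). Slc43a2, which encodes LAT4, a carrier of large neutral amino acids that does not exchange, rose by 1.21 to 12.9 ± 0.183 FPKM in SETD4 OE, against 4.99 ± 0.196 FPKM in control. Slc6a11, a GABA carrier, rose by 0.80 to 82.8 ± 0.518 FPKM in SETD4 OE, against 47.2 ± 0.978 FPKM in control. The taurine carrier gene Slc6a6 fell by 2.46 on the log2 scale, to 2.10 ± 0.0929 FPKM in SETD4 OE, against 16.0 ± 0.250 FPKM in control (adjusted p = 5.129e-07, limma). Its fall was larger than that of any of the 10 transporters.

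Carriers of the lysosomal membrane release amino acids from degraded protein. All 5 genes of this list passed the filter, 4 rose and 1 fell, where 60.0% of all tested genes changed. Slc38a9, among those that rose, was at 2.19 FPKM in SETD4 OE and 0.916 FPKM in control and passed the filter only through SETD4 OE. The median of the 5 was 0.34 on the log2 scale. Ctns, which exports cystine, rose by 1.18 to 12.6 ± 0.669 FPKM in SETD4 OE, against 4.98 ± 0.282 FPKM in control. Slc36a1, a proton-coupled carrier, rose by 0.26, to 6.59 ± 0.368 FPKM in SETD4 OE, against 5.34 ± 0.332 FPKM in control. Slc38a7, which exports glutamine and belongs to the family of the SNAT genes above, fell by 0.40 on the log2 scale, to 8.88 ± 0.354 FPKM in SETD4 OE, against 12.03 ± 1.21 FPKM in control.

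Of 32 genes that report amino acid supply to mTORC1, 7 rose and 5 fell, with a median of 0.03. That is 37.5% called, below the 60.0% of all tested genes. The genes given next as rising or falling are thus the movers of a list in which most did not pass. Of the 32, 9 to 12 were higher and 3 or 4 lower under the other scalings. The leucine sensor family members Sesn3 and Sesn1 rose by 1.45 and 1.09 on the log2 scale. Sesn3 was at 43.2 ± 4.08 FPKM in SETD4 OE and 15.1 ± 1.29 FPKM in control. Sesn2, of the same family, was at 41.1 ± 0.996 FPKM in SETD4 OE and 40.7 ± 2.62 FPKM in control. Its log2 fold change of 0.02 did not pass (adjusted p = 0.847, limma). Castor2, of the arginine sensor family, rose by 0.96 and the Rag GTPase gene Rragd by 0.92. Castor1 and the further Rag genes Rraga, Rragb and Rragc did not pass. Sec13 and Seh1l, whose products belong both to the nuclear pore and to the GATOR complex, fell by 0.59 and 0.51, Rptor, the mTORC1 scaffold, fell by 0.57, and Nprl3, a further GATOR subunit gene, fell by 0.25. The fall of Nprl3 did not pass under several alternatives, among them equal sums (adjusted p = 0.186).

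Among 25 genes of ATF4 and the amino acid response, 7 rose and 12 fell. That is 76.0% called, beside 60.0% of all tested genes (26.0% higher and 33.9% lower). Trib3, among those that rose, was at 1.53 FPKM in SETD4 OE and 0.845 FPKM in control and passed the filter only through SETD4 OE. The median of this list was -0.16 on the log2 scale. Atf4 itself was at 65.6, 64.0 and 73.4 FPKM in the SETD4 OE libraries, against 92.4, 101 and 101 FPKM in the control libraries, and fell by 0.53 on the log2 scale (SE 0.07, adjusted p = 6.800e-04, limma). Enzyme genes of this list that fell included Mthfd2 of mitochondrial folate metabolism (-1.61), the asparagine synthetase gene Asns (-1.06) and the serine-to-glycine enzyme gene Shmt2 (-0.65). Eif2s1, the subunit of the initiation factor that the stress kinases phosphorylate, fell by 1.08. The stress factor genes Atf3 and Ddit3 rose by 0.87 and 0.55, the serine synthesis gene Psph by 0.41 and Impact, an inhibitor of GCN2, by 0.35. Chac1, Trib3 and Phgdh, the remaining genes among the 7 that rose beside 12 that fell, rose by 0.55, 0.45 and 0.27. Of the 10 transporters, Slc1a4, Slc1a5 and Slc7a1 fell beside Atf4, and Slc38a1, Slc38a3, Slc6a9 and Slc3a2 rose. Slc7a5, Slc7a3 and Slc38a2 did not pass. Of the 16 wider carriers tested, 8 rose, Slc7a11 among them, and 3 fell. A part of ATF4 in the transporter changes was not tested.

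**Figure D3:**
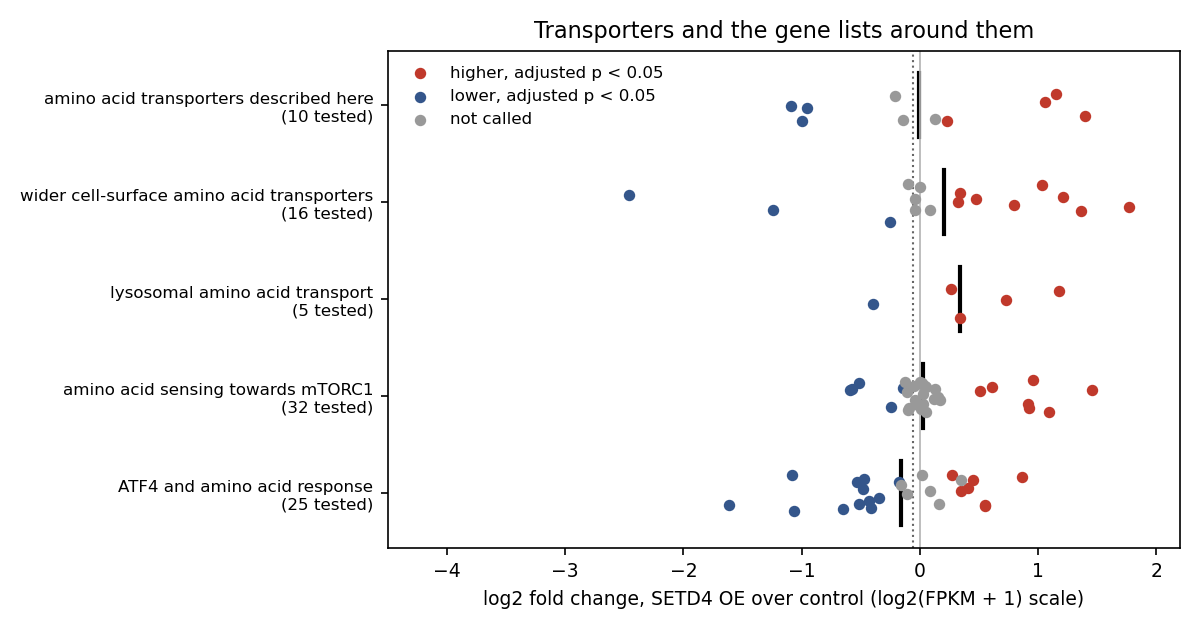
Log2 fold change, SETD4 OE over control, of the tested genes in the 10 transporters and in 4 surrounding lists; each point is a gene, black bars are medians and the dotted line is the median of all tested genes. The transporters split into rises and falls around a median of 0.00, lysosomal carriers lie mostly to the right and the ATF4 list has more genes lower than higher.

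Promoter windows were available for 5 of the 10 genes, as 8 windows of 250 bases before to 50 bases after an annotated start (RefSeq, GRCm38.p6, an earlier build than the mm39 of the values). They are shown for Slc1a4 and Slc7a1, which fell beside Atf4, and for Slc6a9, which rose, because composite C/EBP-ATF sites are the known route of ATF4 to its targets. The core of such a site, TGATGNAA, and the E-box CACGTG, which MYC family factors bind, were searched on both strands. Matches are in capitals, and no match overlapped another.
Slc1a4, chr11:20332664-20332963, minus strand: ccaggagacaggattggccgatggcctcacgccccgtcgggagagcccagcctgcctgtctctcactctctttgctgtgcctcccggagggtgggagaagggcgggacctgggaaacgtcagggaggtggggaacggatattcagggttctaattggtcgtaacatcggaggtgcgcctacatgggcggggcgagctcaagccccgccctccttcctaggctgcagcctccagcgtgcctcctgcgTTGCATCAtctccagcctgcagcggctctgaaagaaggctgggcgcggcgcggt
Slc7a1, chr5:148399855-148400154, minus strand: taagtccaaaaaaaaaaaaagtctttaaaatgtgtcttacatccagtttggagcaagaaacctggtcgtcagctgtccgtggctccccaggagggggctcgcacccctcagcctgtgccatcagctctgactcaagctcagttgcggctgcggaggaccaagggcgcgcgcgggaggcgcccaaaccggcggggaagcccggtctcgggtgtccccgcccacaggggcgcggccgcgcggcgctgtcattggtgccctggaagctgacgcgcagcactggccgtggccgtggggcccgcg
Slc6a9, chr4:117835008-117835307, plus strand: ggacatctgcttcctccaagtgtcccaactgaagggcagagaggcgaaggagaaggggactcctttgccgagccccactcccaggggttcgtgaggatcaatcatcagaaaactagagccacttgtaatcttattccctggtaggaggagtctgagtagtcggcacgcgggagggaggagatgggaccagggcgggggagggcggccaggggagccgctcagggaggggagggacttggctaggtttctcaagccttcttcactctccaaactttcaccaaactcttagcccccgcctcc
The Slc1a4 window holds 1 match to TGATGNAA on the reverse strand, beginning at base -4 relative to the annotated start. TGATGNAA was absent from the other 7 windows of these genes, and CACGTG from all 8. Over all 32851 windows of this length, 3.97% hold TGATGNAA and 7.15% hold CACGTG. These are matches of letters in short windows and say nothing of binding or of a part of ATF4 in these changes, which was not tested.

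**Figure D4:**
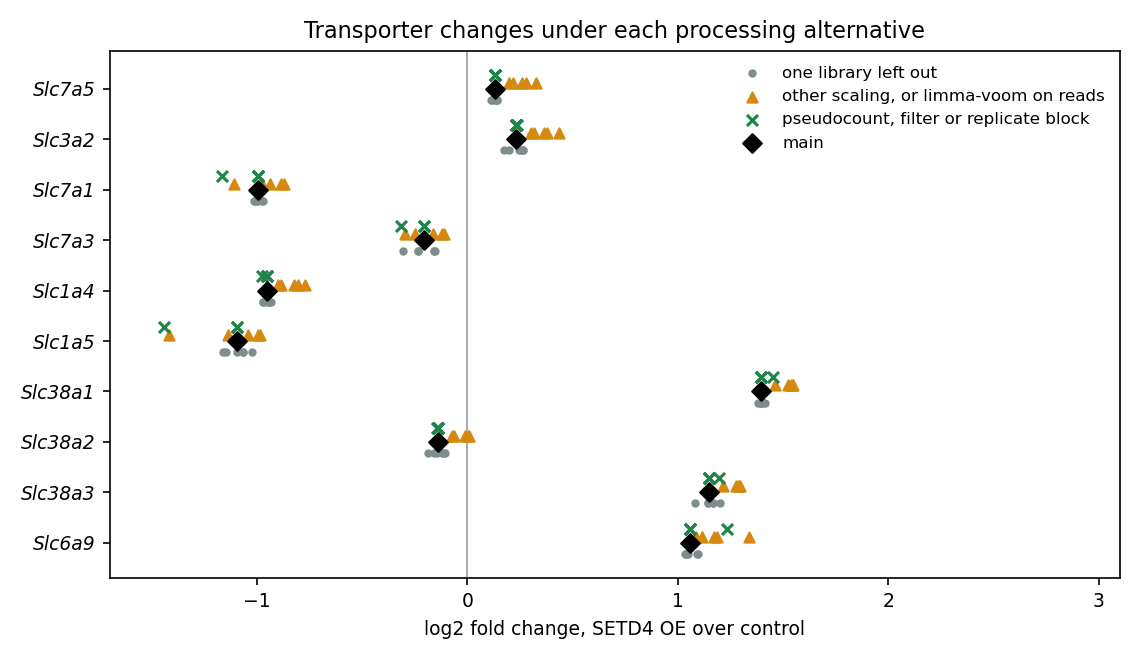
Log2 fold change of each transporter, SETD4 OE over control, in the main test (diamond), with 1 library left out (grey dots), under other scalings or limma-voom (triangles), and with another pseudocount, filter or a replicate block (crosses). Slc38a2 is the only transporter whose values lie on both sides of 0, and Slc7a5 and Slc3a2 move further from 0 under every other scaling.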

How the data were processed

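Values were read from 2 deposited tables, a table per group with a column per library. The deposited tables give gene coordinates and gene length, per the file headers, which name no unit. The deposited values were taken as FPKM, inferred from the values and gene lengths. Reads had been aligned with HISAT2 2.0.5 to mm39, per the submitters' processing notes; counting tool, annotation and strand setting are not given in the sources used here. Multiplied by gene length, 100% of values were whole numbers of reads (tolerance 0.05 reads) times a constant of the library, which gave reads per gene. limma-voom on these reads called 7954 genes, the main test 7790.

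The 12994 genes whose mean reached 1 FPKM were compared on log2(FPKM + 1) with limma 3.58.1 in R 4.3.3 (mean-variance trend, two-sided, Benjamini-Hochberg over all tested genes, called at adjusted p under 0.05). Libraries of a group differed by more than counting noise (chi-square per degree of freedom 3.68 to 14.8 within groups), so no library was merged with another; this does not tell separate cultures from separate preparations of the same culture. The limma step was run on simulated data with far fewer changed genes than here and a fixed spread between libraries. That run therefore does not give the error rate in these data. All 10 transporters were named whatever their test; from each of 4 surrounding lists the called genes whose mean reached 5 FPKM were named, at most 4 in each direction. Ddit3 is listed 2 times, and its higher entry was used. Members, lists, tests and alternatives were chosen with earlier results of these data known. Alternatives covered pseudocount, filter, scaling, replicate block, limma-voom and leaving out each library. Figures were drawn with matplotlib 3.10.9.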

Additional observations from a re-analysis of the deposited data

How the results depend on the processing

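Slc7a1, Slc1a4, Slc1a5, Slc38a1, Slc38a3 and Slc6a9 kept direction and call in all 89 alternative values computed (largest adjusted p 1.469e-03, limma); Slc1a5 and Slc7a3 have no value under a minimum of 5 FPKM. Scaling to equal sums or by upper quartile moved the median of all tested genes by 0.11 and 0.12 on the log2 scale, and the share of changed genes that were higher was 56.0% and 57.5%, beside 43.4% in the main test and 35.8% with a mean of at least 5 FPKM. Slc7a5 passed at 0.26 with equal sums, 0.20 with median of ratios, 0.28 with upper-quartile scaling, 0.32 with quantile normalization and 0.22 with limma-voom, part of which is that shift. Slc38a2 turned to 0.0029 with upper quartile and 0.0060 with quantile normalization. Leaving out single libraries gave 0.17 to 0.26 for Slc3a2, -0.31 to -0.15 for Slc7a3, -0.19 to -0.11 for Slc38a2, 0.11 to 0.14 for Slc7a5, and 6 to 9 changed transporters. With a mean of at least 5 FPKM, 3 lysosomal carriers changed, because fewer were tested. Of 405 alternative values of 27 named surrounding genes, 398 kept direction and call, 7 lost the call (Slc7a6 and Nprl3) and 0 reversed; these were added after the tables were seen. Same-numbered libraries did not deviate together (correlations -0.07, -0.23 and 0.08), while differently numbered ones ran from -0.25 to 0.30. With 3 libraries per group this shows no pairing by number but cannot exclude it. With a replicate block 6941 genes and 7 transporters changed. The log2 ratios then gave exact p of 0.25 or more, where 0.25 is the smallest that sign flips over 3 pairs allow. Depth limits Slc7a3 and Slc1a5 most; intervals cover the spread between libraries only.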
